A study of Saccharomyces cerevisiae with 6 samples.

Results

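The nuclear tRNA genes of budding yeast (Saccharomyces cerevisiae) were examined in 3 libraries of quiescent cells and 3 of log-phase cells. Members were the rows of the deposited count table whose name holds t, an amino acid letter, an anticodon in brackets and a nuclear chromosome letter. There were 274 of them among 9891 rows, and summing copies with the same anticodon gave 41 anticodon groups. The 24 mitochondrial tRNA rows and 1 tRNA row with no anticodon in its name were not members. A name such as tP(UGG)F reads as the proline (P) tRNA with anticodon UGG whose gene lies on the chromosome lettered F, chromosome VI.

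Quiescent cells were the dense fraction of a starved culture taken at day 7 and purified over 2 rounds of Percoll density gradient, while log cells were growing at an OD600 of 0.8 to 1.0. All 6 cultures were strain YCH406 (MATa) in YPD with adenine and ampicillin at 30 C. In this strain (hta1-htb1)∆::LEU2 and (hta2-htb2)∆::TRP1 remove the chromosomal H2A and H2B genes, and pSAB6 (HTA1-HTB1-URA3) and pZS145 (HTA1-Flag-HTB1::HIS3) supply them from plasmids. It also carries his3∆200, leu2∆1, ura3-52, trp1∆ and RPB3-9Myc::hphNT1, a tagged subunit of RNA polymerase II. Total RNA was depleted of ribosomal RNA and sequenced with a kit for whole transcriptomes, and the labels describe no step specific to tRNA. The labels call the 3 replicates of each state biological.

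Nuclear tRNA genes are transcribed by RNA polymerase III from promoter elements inside the gene, the A and B boxes, which the factor TFIIIC binds. The transcript is trimmed at both ends, given a CCA tail, spliced where it holds an intron beside the anticodon, and modified at many bases. In starved yeast the repressor Maf1 is known to hold RNA polymerase III back, while mature tRNA is a long-lived RNA.

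Sequences of 12 genes, from the RefSeq R64 genome and 5′ to 3′ on the gene strand, show the members on which the results turn, with the anticodon in capitals. The proline gene lies on chrVI:101376-101478, plus strand, and holds an intron at bases 37 to 67. The initiator methionine gene (IMT4) lies on chrV:100133-100204, plus strand, and the elongator methionine gene (EMT4) on chrXIII:572883-572955, minus strand. The phenylalanine gene, on chrXIII:352280-352370, plus strand, holds an intron at bases 38 to 55.
Proline tP(UGG)F: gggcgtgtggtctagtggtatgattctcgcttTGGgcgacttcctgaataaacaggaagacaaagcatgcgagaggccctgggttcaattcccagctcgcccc
Methionine tM(CAU)E: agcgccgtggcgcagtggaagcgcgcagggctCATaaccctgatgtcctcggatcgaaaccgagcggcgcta
Methionine tM(CAU)M: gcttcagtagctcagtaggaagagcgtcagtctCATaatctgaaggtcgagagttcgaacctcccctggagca
Phenylalanine tF(GAA)M: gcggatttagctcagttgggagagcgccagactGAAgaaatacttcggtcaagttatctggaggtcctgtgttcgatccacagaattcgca

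Glutamine, glycine and glutamate genes are shown because genes or anticodon groups of 1 amino acid gave different changes. Those of glutamine lie on chrXIII:808246-808317, minus strand, for tQ(CUG)M (CDC65), on chrIII:168301-168372, minus strand, for tQ(UUG)C, and on chrII:350827-350898, plus strand, for tQ(UUG)B. The glycine genes lie on chrVII:779616-779687, plus strand, for tG(UCC)G (SUF4), on chrXV:594354-594425, minus strand, for tG(CCC)O (SUF5), and on chrIV:1257008-1257079, minus strand, for tG(CCC)D (SUF3). The glutamate genes lie on chrXIII:290801-290872, plus strand, for tE(UUC)M and on chrXVI:210192-210263, minus strand, for tE(UUC)P.
Glutamine tQ(CUG)M: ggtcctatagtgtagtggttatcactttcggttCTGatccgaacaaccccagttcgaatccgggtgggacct
Glutamine tQ(UUG)C: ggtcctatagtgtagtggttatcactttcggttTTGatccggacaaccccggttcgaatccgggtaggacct
Glutamine tQ(UUG)B: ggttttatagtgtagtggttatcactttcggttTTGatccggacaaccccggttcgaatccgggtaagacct
Glycine tG(UCC)G: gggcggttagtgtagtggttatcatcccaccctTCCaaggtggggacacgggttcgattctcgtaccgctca
Glycine tG(CCC)O: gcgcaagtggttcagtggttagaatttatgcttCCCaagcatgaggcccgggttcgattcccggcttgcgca
Glycine tG(CCC)D: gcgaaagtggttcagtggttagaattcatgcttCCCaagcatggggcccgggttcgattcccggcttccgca
Glutamate tE(UUC)M: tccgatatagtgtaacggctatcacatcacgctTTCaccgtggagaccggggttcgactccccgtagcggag
Glutamate tE(UUC)P: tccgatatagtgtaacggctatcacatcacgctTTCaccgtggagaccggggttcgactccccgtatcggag

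With positions counted from 1 at the 5′ end of each gene and the first-named gene's base first, tQ(CUG)M differed from tQ(UUG)C at 4 positions (C34T, A42G, A51G and G66A). The gene tQ(UUG)B differed from tQ(UUG)C by T4C, T5C and A67G. Between tG(CCC)O and tG(CCC)D the differences were C4A, T27C, A44G and G68C. The gene tE(UUC)M differed from tE(UUC)P by G67T alone. The letters GNTCNANNC, the core of the B box, were found on the gene strand in 274 of 274 tRNA genes. They were found on either strand in 7.32% of 164788 windows of 73 bases outside tRNA genes. This search covered both strands, and the letters also matched the other strand in 60 of the tRNA genes.

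Libraries held 8894585 to 12696572 counts in quiescent cells and 10476761 to 14213993 in log cells. Nuclear tRNA genes took 9.68%, 5.18% and 8.61% of counts in the quiescent libraries and 9.33%, 6.77% and 3.31% in the log libraries. The states overlapped, with 7.82% ± 2.35 in quiescent cells and 6.47% ± 3.02 in log cells (SD, n = 3 each). An exact two-sided permutation test gave p = 0.6, where 3 libraries against 3 can reach no less than 0.1. The third log library held the least tRNA, and without it the quiescent mean was 0.225 percentage points below the log mean. Ribosomal DNA rows took 16.2% to 38.5% of counts in quiescent libraries and 4.68% to 19.3% in log libraries, so the base of a share differed between the states. Set against protein-coding counts, nuclear tRNA came to 24.6% ± 7.75 in quiescent cells and 9.52% ± 3.97 in log cells, without overlap between the states (exact p = 0.1, adjusted p = 0.123 over 16 shares). As a share of TPM, which divides by row length, the order was turned round, at 23.8% ± 6.68 in quiescent cells and 31.9% ± 12.4 in log cells (exact p = 0.4). Because the RNA was taken in bulk, fewer cells holding a tRNA and less of it per cell cannot be told apart.

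Within the tRNA pool a few groups held most of the counts. The group tL(CAA), a leucine tRNA with an intron and 10 copies, took 29.4% ± 2.32 of tRNA counts in quiescent cells and 24.6% ± 2.81 in log cells (SD, n = 3 each). Per length of the row, which takes in the intron, it held 21.1% ± 1.88 in quiescent cells and 18.2% ± 2.28 in log cells. It ranked highest in both states. Row lengths of tL(CAA) were 113 to 114 bases, and its mature sequence has 82. For tP(UGG) they were 101 to 104 bases, and the mature sequence has 72. Shares per mature length were not worked out, so the ranks given here hold for row length only. Next per length came tE(UUC), the main glutamate tRNA, with 14.7% ± 0.162 in quiescent cells and 15.6% ± 1.05 in log cells. In quiescent cells the aspartate group tD(GUC) followed, and in log cells the glutamine group tQ(UUG). The group tD(GUC) held 11.8% ± 0.463 in quiescent cells and 8.48% ± 1.28 in log cells per length. For tQ(UUG) the per-length share was 7.46% ± 0.265 in quiescent cells and 12.9% ± 0.666 in log cells. In quiescent cells the means of tL(CAA), tE(UUC), tD(GUC), tQ(UUG) and tG(UCC), at 21.1%, 14.7%, 11.8%, 7.46% and 6.99%, were set apart by more than their SDs, apart from tQ(UUG) and tG(UCC), which lay within 1 summed SD. The leucine and glutamate means in log cells, at 18.2% and 15.6%, likewise lay within their summed SDs of each other, as did those of tP(UGG) and tD(GUC), which followed tQ(UUG) there at 9.94% and 8.48%. At the low end, tL(UAG), a leucine tRNA, held 0.0343% ± 0.00613 in quiescent cells and 0.0470% ± 0.00518 in log cells per length. Copy number followed these shares weakly, with Spearman's rho over the 41 groups of 0.21 in quiescent and 0.27 in log cells, given as a description. The counts reflect how readily each tRNA was copied into a library as well as its amount, and the share of each was not tested.

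Of the 41 anticodon groups, 11 rose in quiescent cells, 8 fell and 22 did not pass the test (edgeR quasi-likelihood test, Benjamini-Hochberg adjusted p under 0.05 over 7072 rows). Among all rows tested in that fit, 69.3% passed, 34% as risen and 35.3% as fallen. Calls were thus no more frequent among tRNA groups than among all rows. Their median log2 fold change, quiescent minus log, was 0.27, and that of all rows tested was -0.0047. The groups did not overlap between the states in 16 of the 41. The share of all rows without overlap was not worked out, so this count is a description only. The split depended on the test and on the filter. With limma on log2(TPM + 1), on which the median of all rows lay at -0.80, 0 groups rose and 14 fell. Among all 7072 rows, 1063 rose and 3845 fell with limma. With only rows of mean TPM of at least 10 in the fit, 19 rose and 3 fell. Of the 2368 rows in that fit, 939 rose and 994 fell.

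**Figure D1:**
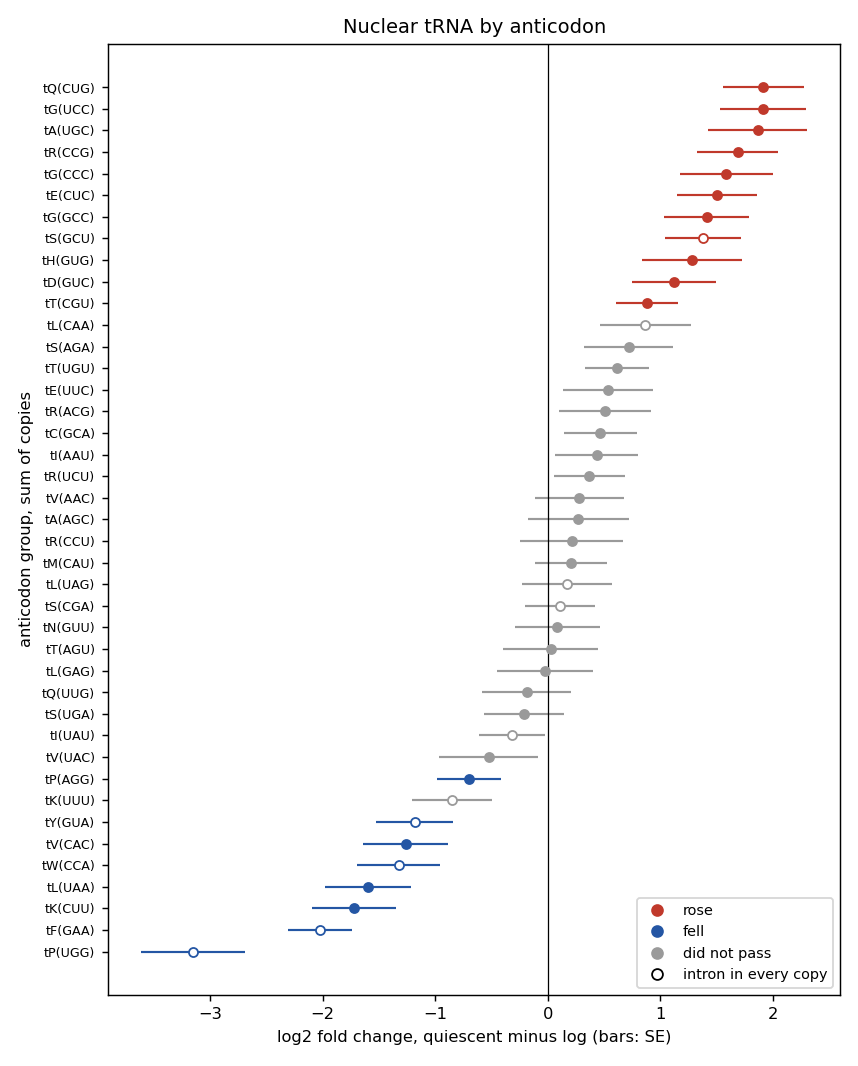
Log2 fold change, quiescent minus log, of each of the 41 anticodon groups (copies summed, points) with its standard error (bars). Red groups rose, blue groups fell and grey groups did not pass, and open points mark groups whose every copy holds an intron. The points run between -3.15 for tP(UGG) and 1.92 for tQ(CUG), and 4 of the 8 groups that fell have open points.

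The largest fall was that of tP(UGG), the main proline tRNA, with 10 copies. It had 796, 456 and 1164 normalized CPM in the quiescent libraries, against 9928, 7916 and 3584 in the log libraries. Every quiescent library lay far below every log library. The fall was 8.87-fold, a log2 fold change of -3.15 (SE 0.46, n = 3 each, adjusted p = 0.000106 by edgeR). The group made up 0.908% ± 0.108 of tRNA counts in quiescent cells and 12.1% ± 1.43 in log cells. The other proline tRNA, tP(AGG), had a log2 fold change of -0.70 (edgeR adjusted p = 0.0488), and its states overlapped. Its call was lost under 8 of 16 alternatives. Among these, it stood at -0.58 without quiescent library 1 (adjusted p = 0.158), -0.49 without quiescent library 2 (0.139), -0.49 without log library 1 (0.184) and -0.70 without log library 2 (0.0911). All proline tRNA together took 1.09% ± 0.107 of tRNA counts in quiescent cells and 12.6% ± 1.38 in log cells.

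The phenylalanine group tF(GAA), the only group for that amino acid, had 96.3, 81.2 and 144 normalized CPM in the quiescent libraries, against 567, 429 and 310.4 in the log libraries. It fell 4.07-fold (log2 fold change -2.03, SE 0.28, edgeR adjusted p = 7.6e-05). All quiescent libraries were lower than all log libraries. The lysine group tK(CUU), which has no intron, had 134, 91.1 and 175 normalized CPM in the quiescent libraries, against 585, 526 and 206 in the log libraries, again without overlap. Its log2 fold change was -1.72 (SE 0.37, edgeR adjusted p = 0.00174). These 2 groups and tP(UGG) kept their calls under 16 of 16 alternatives. The other lysine group, tK(UUU), which does hold an intron, had a log2 fold change of -0.85 and missed the threshold (adjusted p = 0.0532). It passed without quiescent library 3, at -1.16 (adjusted p = 0.0196), and without log library 3, at -1.09 (adjusted p = 0.0196).

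Further falls were seen in leucine, tryptophan, valine and tyrosine groups. The leucine group tL(UAA) averaged 183 ± 59.3 normalized CPM in quiescent cells and 552 ± 284 in log cells (log2 fold change -1.60, edgeR adjusted p = 0.00342). The tryptophan group tW(CCA), the only one for that amino acid, averaged 520.3 ± 227 normalized CPM in quiescent cells and 1300.2 ± 468 in log cells (log2 fold change -1.32, edgeR adjusted p = 0.00798). In both, the states did not overlap. The valine group tV(CAC) averaged 104 ± 37.5 normalized CPM in quiescent cells and 248 ± 127 in log cells (log2 fold change -1.26, edgeR adjusted p = 0.0116). That call was lost without log library 1, at a log2 fold change of -0.81 (adjusted p = 0.0556). The tyrosine group tY(GUA) had a log2 fold change of -1.18 (edgeR adjusted p = 0.00944), with overlap between the states. With only rows of mean TPM of at least 10 in the fit, all 4 calls were lost, at -0.95 for tL(UAA), -0.67 for tW(CCA), -0.61 for tV(CAC) and -0.53 for tY(GUA) (adjusted p = 0.0642, 0.152, 0.2 and 0.226 by edgeR).

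The largest rise was that of tQ(CUG), the glutamine tRNA for CAG codons, encoded by a single gene. It had 2697, 1958 and 3869.9 normalized CPM in the quiescent libraries, against 1099, 679 and 478 in the log libraries. Its quiescent libraries all lay above its log libraries. The rise was 3.78-fold (log2 fold change 1.92, SE 0.36, edgeR adjusted p = 0.000664). The other glutamine group, tQ(UUG), had a log2 fold change of -0.19 (adjusted p = 0.691). Of all glutamine tRNA counts, tQ(CUG) made up 33.6% ± 0.800 in quiescent cells and 10.7% ± 1.27 in log cells, values chosen after they were seen and given without a test.

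All 3 glycine groups rose. The group tG(UCC) had 5778, 3308 and 6792 normalized CPM in the quiescent libraries, against 2047, 1298 and 880.1 in the log libraries. It stood 3.76-fold higher in quiescent cells, without overlap (log2 fold change 1.91, SE 0.38, edgeR adjusted p = 0.00101). The groups tG(CCC) and tG(GCC) had log2 fold changes of 1.59 and 1.41 (edgeR adjusted p = 0.00523 and 0.00604), and neither overlapped between the states. Of the reads of tG(GCC), the single row tG(GCC)D2 supplied 73.7% ± 1.47 in quiescent cells and 57.7% ± 6.21 in log cells. Fitted as rows, the 15 other copies of that group, at 0.32 to 0.89, did not pass. With limma on log2(TPM + 1) the 3 glycine groups stood at 0.43 to 0.89 and none passed. Glycine tRNA as a whole made up 14.3% ± 1.31 of tRNA counts in quiescent cells and 6.74% ± 0.310 in log cells. Outside glycine, the alanine group tA(UGC) had 1098, 557 and 1405 normalized CPM in the quiescent libraries, against 456, 248 and 136 in the log libraries. It rose 3.65-fold (log2 fold change 1.87, SE 0.44, edgeR adjusted p = 0.00297), while the other alanine group, tA(AGC), had a log2 fold change of 0.27 (adjusted p = 0.605).

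The arginine group tR(CCG) averaged 941 ± 296 normalized CPM in quiescent cells and 292 ± 139.7 in log cells (log2 fold change 1.69, edgeR adjusted p = 0.00154). The glutamate group tE(CUC) averaged 3230.0 ± 992 normalized CPM in quiescent cells and 1139 ± 487 in log cells (2.84-fold higher, edgeR adjusted p = 0.00305). In both the quiescent libraries all lay above the log libraries. The remaining risers were the serine group tS(GCU) at 1.38, the histidine group tH(GUG) at 1.28, the aspartate group tD(GUC) at 1.12 and the threonine group tT(CGU) at 0.88 on the log2 scale. The calls of the last 3 were lost under several alternatives. Scaled to total counts, tD(GUC) was at 0.83 (adjusted p = 0.0758) and tT(CGU) at 0.58 (adjusted p = 0.113). Without quiescent library 3, tD(GUC) was at 0.93 (adjusted p = 0.0805) and tT(CGU) at 0.68 (adjusted p = 0.0517). The call of tD(GUC) was also lost without log library 2, at 1.02 (adjusted p = 0.0807), and without log library 3, at 0.93 (adjusted p = 0.0737). That of tH(GUG) was lost without quiescent library 1, at 1.28 (adjusted p = 0.0546), quiescent library 3, at 0.98 (0.0913), log library 2, at 1.30 (0.0594), or log library 3, at 0.96 (0.0714). Under limma on log2(TPM + 1) none of the 11 risers passed, and tT(CGU) turned to -0.15.

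Among the 6 groups encoded by 1 gene, 3 rose, namely tQ(CUG), tR(CCG) and tT(CGU), and 0 fell. The other 3 were tL(GAG) at -0.025, tS(CGA) at 0.11 and tR(CCU) at 0.22 on the log2 scale, with adjusted p of 0.962, 0.761 and 0.69 by edgeR. The group with most reads, tL(CAA), had 23426, 17753 and 34572 normalized CPM in the quiescent libraries, against 17166, 15550.0 and 8793 in the log libraries. The states did not overlap, yet its log2 fold change of 0.87 missed the threshold (adjusted p = 0.076). Without quiescent library 2 it passed, at 1.09 (adjusted p = 0.0304). The group tE(UUC), second in reads in quiescent cells, averaged 11064 ± 3582 normalized CPM in quiescent cells and 7638 ± 3321 in log cells and did not pass either (log2 fold change 0.53, adjusted p = 0.25).

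**Figure D2:**
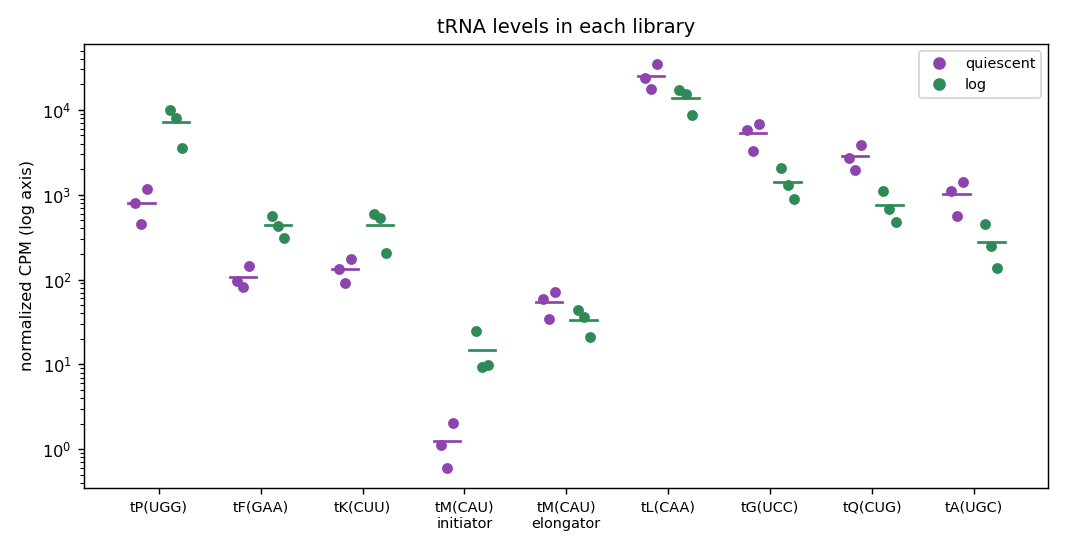
Normalized CPM (log axis) of 7 anticodon groups and of the initiator and elongator methionine genes in each library. Points are libraries, with quiescent libraries in purple on the left of each pair and log libraries in green on the right, and lines are means. Quiescent points lie wholly below log points for tP(UGG), tF(GAA), tK(CUU) and initiator methionine, and wholly above them for tL(CAA), tG(UCC), tQ(CUG) and tA(UGC).

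Counts were also scaled to the nuclear tRNA total of each library, which asks how the makeup of the pool differed. In that fit 48.6% of all 7072 rows passed, 14% as risen and 34.6% as fallen. Of the 41 groups, 1 rose and 8 fell. The riser was tQ(CUG) at 1.33 on the log2 scale (edgeR adjusted p = 0.0495). That call was lost without quiescent library 1, quiescent library 3, log library 1 or log library 2, each leaving 0 risers, and 2 groups rose without log library 3. The 8 that fell were tP(UGG) at -3.74, tF(GAA) at -2.64, tK(CUU) at -2.26, tL(UAA) at -2.12, tW(CCA) at -1.97, tV(CAC) at -1.82, tY(GUA) at -1.75 and tK(UUU) at -1.47. Without quiescent library 1, 5 fell. The biological coefficient of variation was 0.465 under this scaling and 0.254 in the earlier fit of the anticodon groups. Both values were estimated over all 7072 rows, so they do not give the spread of the tRNA groups within the pool. The calls drew on that spread over all rows, and the SEs of the 41 groups were 0.57 to 0.65. A group whose shares lay well apart could thus miss the threshold. One such group, tG(UCC), held 6.11% ± 0.424 of tRNA counts in quiescent cells and 2.45% ± 0.217 in log cells. It did not pass (log2 fold change 1.32, edgeR adjusted p = 0.0516).

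Introns were held by every copy of 10 groups and by no copy of the other 31, and the introns were 14 to 60 bases long. Rows span the intron, so spliced and unspliced molecules were counted together. Of the groups with an intron 1 rose and 4 fell, and of those without 10 rose and 4 fell. Their median log2 fold changes were -0.58 and 0.43. Genes with an intron supplied 30.0%, 34.5% and 34.0% of nuclear tRNA counts in the quiescent libraries, against 38.4%, 44.7% and 42.1% in the log libraries. The states did not overlap, at 32.8% ± 2.46 in quiescent cells and 41.7% ± 3.16 in log cells (exact permutation p = 0.1, the smallest that 3 against 3 allows, and 0.123 adjusted over 16 shares). Most of the quiescent share was tL(CAA). Without that group the share was 4.95% ± 0.473 in quiescent cells and 22.8% ± 1.84 in log cells, a split chosen after its values were seen. The intron group tP(UGG) alone held 0.908% ± 0.108 of tRNA counts in quiescent cells and 12.1% ± 1.43 in log cells. That gap is wider than the gap of all intron genes together, so the lower intron share need not hold for intron genes in general. The share without tP(UGG) was not worked out.

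Among other features ranked here, GC content followed the changes least and the length of the mature sequence most. Spearman's rho with the log2 fold change over the 41 groups was 0.05 for GC content, -0.11 for copy number, -0.35 for the length of the mature sequence and 0.23 for the mean reads, each a description over groups that share libraries. By the first base of the anticodon, the 7 groups with A had 0 risers and 1 faller, and the 9 with G had 4 and 2. The 13 groups with U had 2 risers and 2 fallers, and the 12 with C had 5 and 3.

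Fitted as single rows, 45 of the 274 genes rose, 69 fell and 160 did not pass, where 67.9% of the 7305 rows tested passed, 32.8% as risen and 35.2% as fallen. All 274 passed the filter of a mean TPM of at least 1. Of the 60 genes with an intron, 4 rose and 37 fell, with a median log2 fold change of -1.15. The 214 genes without one counted 41 risers and 32 fallers, with a median of 0.30. Intron fallers were 10 rows of tF(GAA), 9 of tP(UGG), 8 of tY(GUA), 6 of tW(CCA) and 4 of tK(UUU), a group that did not pass. Intron risers were 3 rows of tS(GCU) and 1 of tL(CAA). These tallies and medians thus repeat a few groups and are a description only. The number of risers among all 274 genes hung on single libraries, with 82 without quiescent library 2, 83 without log library 1 and 27 without log library 2. With limma on log2(TPM + 1), 0 genes rose and 110 fell, and with only rows of mean TPM of at least 10, 107 rose and 35 fell. Under limma, 1059 of all 7305 rows rose and 3936 fell. Under the filter, 949 of all 2593 rows rose and 1086 fell. Genes of identical sequence share reads, and how the authors divided them is not given in the sources used here, so rows are less certain than groups.

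Of the 35 groups with several copies, 19 had copies within 0.5 of each other on the log2 scale, and 11 spread over more than 1. In 12 of those 19 all copies have 1 identical sequence, so that reads inside them cannot be assigned to a copy and like values were not independent. All 14 copies of tK(CUU), 10 of tF(GAA), 7 of tL(UAA) and 6 of tW(CCA) fell, and all 5 of tA(UGC) and 7 of tH(GUG) rose. Other than in tF(GAA), the copies of each of these groups are 1 identical set. The largest single rises were those of tG(CCC)O at 2.02, tG(UCC)G at 1.92, tA(UGC)O at 1.89 and tQ(CUG)M at 1.89 on the log2 scale. The group tM(CAU), with 1 riser and 5 fallers, was the only one of the 35 to hold copies called in both directions.

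**Figure D3:**
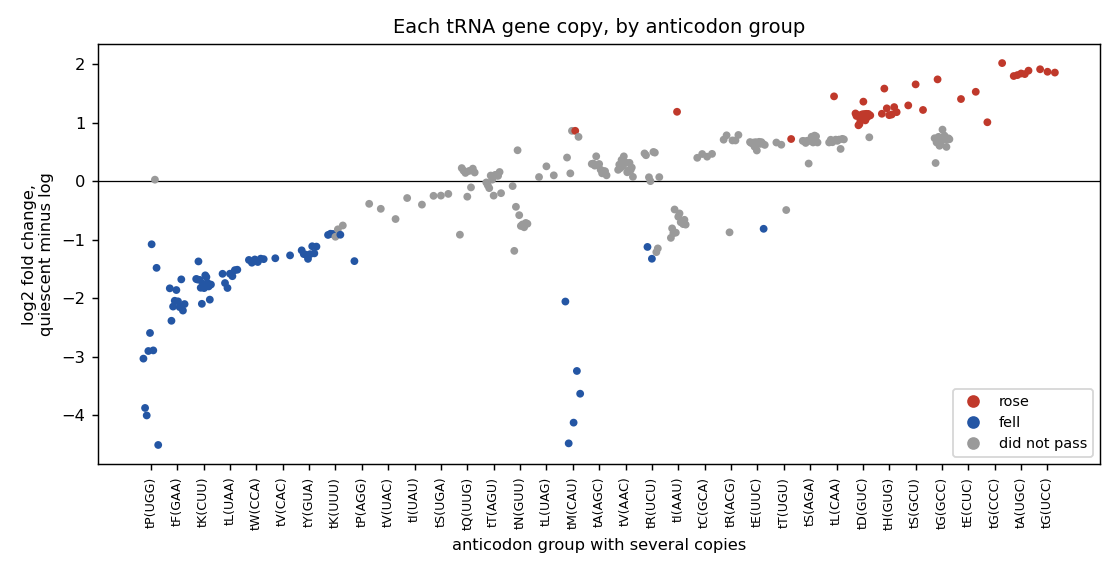
Log2 fold change, quiescent minus log, of each gene copy (points) in the 35 anticodon groups with several copies. Red copies rose, blue copies fell and grey copies did not pass. The copies of tM(CAU) spread between -4.48 and 0.87 and those of tP(UGG) between -4.50 and 0.031, and most other groups form tight clusters.

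Rows of the proline copies differed in their values. All copies but tP(UGG)O3, 9 in number, share 1 mature sequence, so reads of the spliced tRNA cannot be assigned among them. In tP(UGG), 9 of 10 copies fell, with log2 fold changes of -1.07 to -4.50. The copy with most reads was tP(UGG)F (SUF9), with 2877, 1502 and 3915 reads in the quiescent libraries, against 83970, 54815 and 25060 in the log libraries. It fell 14.6-fold (log2 fold change -3.87, SE 0.54, edgeR adjusted p = 0.000117). The copy that fell furthest, tP(UGG)O3, had 404, 314 and 531 reads in the quiescent libraries, against 21207, 11363 and 5458 in the log libraries, a log2 fold change of -4.50. Next came tP(UGG)H at -4.00. The tenth copy, tP(UGG)O1, had 1721, 1030 and 2576 reads in the quiescent libraries, against 3611, 2181 and 1264 in the log libraries. Its states overlapped (log2 fold change 0.031, adjusted p = 0.952). It made up 21.9% ± 2.23 of tP(UGG) counts in quiescent cells and 2.45% ± 0.140 in log cells, a copy picked out after its values were seen.

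Methionine genes fell into their known classes, the initiator, which starts translation, and the elongator, with 5 genes each. This split and the others by sequence were made after the values were seen, and in that fit 69.2% of 7086 rows passed. Initiator genes together had 11, 7 and 19 reads in the quiescent libraries, against 354, 112 and 137 in the log libraries. Every quiescent library lay below every log library, a fall of 11.8-fold (log2 fold change -3.55, SE 0.53, edgeR adjusted p = 0.00012). All 5 initiator rows fell, the furthest being tM(CAU)E at -4.48 and tM(CAU)J3 at -4.12, on counts of 0 to 4 in each quiescent library. The call of tM(CAU)C, at -2.05, was lost without quiescent library 1, 2 or 3 or log library 1, at -2.23 to -1.35 (adjusted p = 0.0577 to 0.173). Elongator genes together had 577, 391 and 650 reads in the quiescent libraries, against 621, 440 and 290 in the log libraries. Their log2 fold change of 0.69 missed the threshold (adjusted p = 0.068). It passed without quiescent library 2, at 0.97 (adjusted p = 0.00911), and without log library 1, at 0.90 (adjusted p = 0.0403). Initiators made up 2.16% ± 0.595 of methionine counts in quiescent cells and 29.6% ± 8.30 in log cells. Few reads of either class were obtained, and the whole group held 0.0641% ± 0.00395 of tRNA counts in quiescent cells and 0.0843% ± 0.00644 in log cells.

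Copies that differ by few bases also gave unlike values, although the difference between them was not tested. In tE(UUC), the gene tE(UUC)M, set apart by G67T, had 6318, 4898 and 6702 reads in the quiescent libraries, against 20018, 10910 and 11027 in the log libraries. Its quiescent libraries were all lower once scaled (log2 fold change -0.79, edgeR adjusted p = 0.0292). The call was lost without quiescent library 1, at -0.81 (adjusted p = 0.0624), quiescent library 2, at -0.57 (adjusted p = 0.0837), or log library 1, at -0.52 (adjusted p = 0.144). The 13 other copies, whose log2 fold change was 0.66, did not pass (adjusted p = 0.167). The gene made up 5.49% ± 0.400 of the group's counts in quiescent cells and 14.1% ± 2.61 in log cells.

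In tG(CCC), the gene tG(CCC)O had 28739, 17340 and 30896 reads in the quiescent libraries, against 13616, 8313 and 3388 in the log libraries. It rose 4.13-fold, without overlap (log2 fold change 2.05, edgeR adjusted p = 0.00248). The other gene, tG(CCC)D, was at 1.04 (adjusted p = 0.0313), with overlap. That call was lost without quiescent library 1, at 0.93 (adjusted p = 0.0890), quiescent library 3, at 0.81 (adjusted p = 0.108), log library 2, at 0.93 (adjusted p = 0.101), or log library 3, at 0.87 (adjusted p = 0.111). The share of tG(CCC) counts from tG(CCC)O was 63.5% ± 2.59 in quiescent cells and 43.5% ± 10.7 in log cells. Among glutamine genes, tQ(UUG)B had 11148, 7877 and 15827 reads in the quiescent libraries, against 43074, 25064 and 20172 in the log libraries (log2 fold change -0.89, adjusted p = 0.0512). As a single row at -0.91 (adjusted p = 0.0532), it passed without quiescent library 3, at -1.24 (adjusted p = 0.0205), and without log library 3, at -1.09 (adjusted p = 0.0346).

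**Figure D4:**
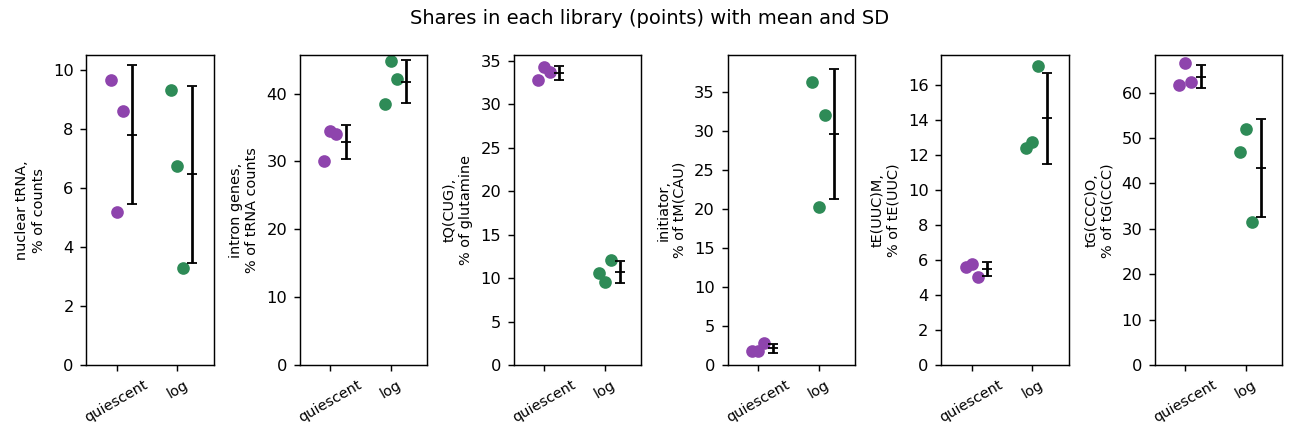
Shares in percent for each library (points), with quiescent libraries in purple on the left and log libraries in green on the right, and with mean and SD (black). Nuclear tRNA as a share of counts overlaps between the states, and the other shares do not, with quiescent values higher for tQ(CUG) and tG(CCC)O and lower for intron genes, initiator methionine and tE(UUC)M.

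Rows of identical sequence could differ widely in reads. There were 35 sets of such rows, holding 232 genes, and in 23 the highest row had at most 1.5 times the reads of the lowest. The median ratio was 1.23 and the highest 91.0. That highest ratio was in glycine, where tG(GCC)D2 had 23522, 17202 and 25756 reads in the quiescent libraries, against 14161, 7157 and 5285 in the log libraries. It was the only copy of the 16 in tG(GCC) to rise (log2 fold change 1.75, edgeR adjusted p = 0.00212). In isoleucine, tI(AAU)I1 had 1457, 867 and 1731 reads in the quiescent libraries, against 1108, 828 and 433 in the log libraries, and it alone rose among 13 copies (log2 fold change 1.19, edgeR adjusted p = 0.0176). Without quiescent library 3 that call was lost, at 0.95 (adjusted p = 0.0591). Rows not placed in 1 such set could differ too. All 10 copies of tL(CAA) share 1 mature sequence, so reads of the spliced tRNA cannot be assigned among them. In leucine, tL(CAA)G1, the tRNA row with most reads, had 70026, 52829 and 72636 reads in the quiescent libraries, against 46026, 27812 and 21078 in the log libraries. It rose 2.74-fold without overlap (log2 fold change 1.46, edgeR adjusted p = 0.00442), while the 9 other copies, among them tL(CAA)L at 0.56 and tL(CAA)D at 0.67, did not pass. The rows tL(CAA)D and tQ(UUG)B stood among the 5 tRNA rows with most reads. The row tL(CAA)D passed without quiescent library 2, at 0.88 (adjusted p = 0.0453).

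Of 115 genes that make, process, modify or turn over tRNA, 11 rose, 73 fell and 31 did not pass, against 34% risen and 35.3% fallen of all rows, and their median log2 fold change was -1.04. Of 12 listed subunits of RNA polymerase III, a list without those common to all 3 nuclear RNA polymerases, 0 rose and 11 fell, with a median of -1.58. The largest falls were those of RPC40, a subunit shared with RNA polymerase I, and RPC25. The gene RPC40 had 24.6, 7.45 and 13.03 normalized CPM in the quiescent libraries, against 117, 105 and 123 in the log libraries, without overlap (log2 fold change -2.94, edgeR adjusted p = 2.56e-05). RPC25 had a log2 fold change of -2.51 (edgeR adjusted p = 4.75e-05).

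The 11 factors of RNA polymerase III were mixed, with 4 risers, 2 fallers and a median log2 fold change of 0.25. Of all rows 34% rose and 35.3% fell, so the risers were near the share over all rows. The largest rise was in TFC3, a TFIIIC subunit, which had 90.1, 101 and 74.9 normalized CPM in the quiescent libraries, against 30.7, 30.98 and 27.1 in the log libraries, without overlap (log2 fold change 1.58, edgeR adjusted p = 1.77e-05). The repressor MAF1 had 45.4, 30.4 and 35.3 normalized CPM in the quiescent libraries, against 12.2, 21.02 and 18.7 in the log libraries and also rose (log2 fold change 1.10, edgeR adjusted p = 0.00203). The other risers were TFC7 and the TFIIIB subunit BDP1, at 0.89 and 0.65, and the fallers were TFC8 and SPT15, the TATA-binding protein, at -1.33 and -0.48. The call of BDP1 was lost without log library 1, at 0.52 (adjusted p = 0.0892). That of SPT15 was lost without any library other than quiescent 2, at -0.53 to -0.33 (adjusted p = 0.0711 to 0.23). Among the 5 other transcripts of RNA polymerase III with a row, the snoRNA SNR52 rose (log2 fold change 1.13, edgeR adjusted p = 0.00544), as did the U6 snRNA SNR6 (log2 fold change 0.91, edgeR adjusted p = 0.027). The call of SNR6 was lost without quiescent library 1 or 3 or log library 2 or 3, at 0.66 to 0.90 (adjusted p = 0.0581 to 0.103). The signal recognition RNA SCR1, the RNase P RNA RPR1 and RNA170 were at 0.81, -0.0063 and -0.91 and did not pass (adjusted p = 0.153, 0.988 and 0.107 by edgeR). Without log library 3, SCR1 passed at 1.56 (adjusted p = 0.00577), and without quiescent library 2, RNA170 passed at -1.33 (adjusted p = 0.0381).

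Of 14 genes for end processing, 2 rose and 6 fell, with a median of 0.046. The furthest falls were those of LHP1, the La protein that binds the 3′ end of new transcripts, at -2.32, and of RPP1, a subunit of RNase P, at -2.29 (edgeR adjusted p = 5.9e-07 and 1.27e-05). Among 11 genes for splicing and transport, 1 rose and 6 fell, with a median of -0.89, led by UTP8, a nucleolar protein of tRNA export, at -2.59 and the tRNA ligase TRL1 at -2.06 (edgeR adjusted p = 7.21e-05 and 1.46e-05). The single riser was MSN5, an exportin, at 0.93. Splicing endonuclease genes were mixed, with SEN34 fallen at -1.60 and SEN2, SEN15 and SEN54 not past the test.

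Of 58 genes for tRNA modification 2 rose and 42 fell, with a median of -1.38. The furthest falls were those of TRM6, a subunit of the methyltransferase that acts on initiator tRNA among others, at -3.49, and of the pseudouridine synthase PUS7 at -3.22 (edgeR adjusted p = 2.3e-07 and 4.29e-07). The gene TRM6 had 4.48, 2.86 and 3.15 normalized CPM in the quiescent libraries, against 42.8, 37.7 and 37.6 in the log libraries, without overlap. The risers were TRM12 and PCC1, at 0.75 and 0.62. The call of TRM12 was lost without quiescent library 1 or 3 or log library 1 or 3, at 0.53 to 0.81 (adjusted p = 0.0683 to 0.158). That of PCC1 was lost without quiescent library 3 or any log library, at 0.53 to 0.69 (adjusted p = 0.0575 to 0.0952). Of 9 genes for quality control and cleavage 2 rose and 6 fell, with a median of -1.005, the furthest being the helicase MTR4 at -2.51 and its partner AIR1 at -1.64 (edgeR adjusted p = 1.33e-05 and 0.00188). The risers were PAP2, a poly(A) polymerase of the same TRAMP complex, at 0.78 and RNY1, an RNase that cleaves tRNA, at 3.21. The gene RNY1 had 26.97, 35.9 and 39.9 normalized CPM in the quiescent libraries, against 4.10, 4.65 and 2.37 in the log libraries, without overlap. Genes named here beyond the furthest of each list were picked out after their values were seen. The 5 listed markers of growing cells all fell, and the 5 of quiescent cells all rose. These markers were chosen with earlier results of these data known, so they are no independent check of the labels.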

How the data were processed

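RNA-seq was measured in 3 quiescent and 3 log libraries. The authors deposited raw read counts per row, per the file headers. The submitters' processing notes name R64 as the build. No source used here names the aligner, the counter or the strand setting. A further 6 columns of per-sample values were not used. Members and lists were chosen with earlier results of these data known. TPM (counts per row length, as a share of the library) was worked out from the counts that the authors deposited. Rows averaging 1 TPM or more were tested with edgeR 4.0.16 (R 4.3.3, quasi-likelihood, two-sided, TMM over tested rows, no covariate), with tRNA copies summed by anticodon, kept as rows, or split by sequence, and again with library sizes set to the nuclear tRNA total. Adjustment was Benjamini-Hochberg at 0.05. Normalized CPM are counts as a share of the TMM-scaled library. Two-sided exact permutation tests compared the shares. Scripts were tested on simulated data. Alternatives were other scalings and filters, DESeq2 1.42.0, limma 3.58.1 on log2(TPM + 1), a replicate block and each library left out. Named groups were the 6 largest rises and falls, the 5 with most reads, those with 1 copy and the 4 largest changes each way relative to the pool, all with at least 20 mean reads where called. Named genes were the 5 with most reads, the 4 largest called changes each way and the 2 of largest change per list. The tRNA rows were matched to the R64 reference by chromosome, anticodon and length, which placed 156 at 1 locus and left 118 with several candidates.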

Additional observations from a re-analysis of the deposited data

How the results depend on the processing

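Spread and sharing of reads limit these results. With 3 libraries a state, the log2 fold changes of the 41 groups had SEs of 0.28 to 0.46. Small changes of a group could therefore miss the threshold. The biological coefficient of variation of 0.254 was that over all 7072 rows. Copies of identical sequence cannot be told apart by reads inside them. More calls of single groups and genes changed with limma and with the higher TPM filter than with another scaling. With rows of mean TPM of at least 10, 19 anticodon groups rose and 3 fell, 107 gene rows rose and 35 fell, 3 groups rose relative to the pool, and 3 pathway genes rose and 12 fell, since that filter keeps few of them. Relative to the pool, 408 of all 2368 rows rose and 1203 fell with that filter. With limma on log2(TPM + 1), 0 groups rose and 14 fell, 0 gene rows rose and 110 fell, 1 pathway gene rose, and tT(CGU) turned to -0.15 and the family tG(CCC)D to -0.058. The difference in the nuclear tRNA share was -8.12 percentage points on TPM, and without log library 3 it was -0.225. With TMM from protein-coding rows, 68 gene rows rose, beside 2718 of all 7305 rows. With total counts, 6 pathway genes rose, beside 1905 of all 7072 rows. Relative to the pool, 5 groups rose with TMM among the groups and 5 with DESeq2, 0 rose without a filter and 0 with filterByExpr, and 5 fell with median-of-ratios factors. Calls over all rows are not given for these last fits, so whether all rows shifted alike cannot be read from them. The cause of the shifts in this paragraph was not tested.

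Leaving out each library in turn gave 8 to 14 risen and 6 to 9 fallen anticodon groups, 27 to 83 risen and 53 to 83 fallen gene rows, and 0 to 2 risen and 5 to 10 fallen groups relative to the pool. The intron share differed by -10.6 to -7.41 percentage points and the nuclear tRNA share by -0.225 to 2.78. Pathway genes risen ran between 8 and 11, and those fallen between 66 and 74. Same-numbered libraries correlated at 0.12, -0.15 and -0.17 in their deviations from the group means, and other pairs at -0.15 to 0.26. No pairing by number was seen, but with so few libraries a pairing was not excluded. With the replicate number as a block, 11 groups rose and 7 fell, 39 gene rows rose and 60 fell, 0 groups rose and 5 fell relative to the pool, and 9 pathway genes rose and 76 fell. Calls over all rows are not given for the block or for the fits without a library, here and above. Whether all rows shifted alike cannot be read from these counts.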
